A study of Homo sapiens with 6 samples.

Results

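The transcriptome of MIA PaCa-2 cells without treatment was described from 3 untreated libraries, which are 3 of the 6 libraries of the series. These 3 were chosen by their labels. MIA PaCa-2 is an established human cell line from a pancreatic carcinoma. The cells were grown in DMEM with 10% fetal bovine serum and 2.5% horse serum and were moved to medium with 1% fetal bovine serum for the assay. The other 3 libraries came from cells given the recombinant protein rhCYGB for 48 h, and they were not used here. The protocol in the labels, shared by all samples, gives this time for the treated cells and no separate harvest time for the untreated ones. It does not say whether the 3 libraries came from separate cultures, so the spread between them may be technical.

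The pancreas is built from duct cells that line its channels, acinar cells that make digestive enzymes and islet cells that make hormones. Duct-like tumours usually keep epithelial keratins and the adhesion protein E-cadherin. Cells of mesenchymal character carry vimentin and often have low levels of epithelial adhesion genes. Classical and basal-like are the names of a pair of expression subtypes of pancreatic cancer, told apart by gene lists.

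Messenger RNA was read with a stranded kit, and untreated library 1 had 35258179 reads counted in genes, library 2 had 42271299 and library 3 had 38522502. Levels are given as FPKM, fragments relative to transcript length and library depth, which allows genes to be compared with each other, as mean ± SD of the 3 libraries (n = 3) unless stated. A gene was called expressed when its FPKM was at least 1 in each of the 3 libraries, and expressed genes were split into moderate, high (mean of at least 10 FPKM) and very high (mean of at least 100 FPKM). A gene was called not detected when no library had more than 3 counts, the limit that a count of 0 allows, equal to 0.0710 to 0.0851 CPM (counts scaled to library depth) here and covering counting error only. All other genes were called trace. No test was made, since there is 1 group, and with bulk RNA a gene expressed in few cells and a gene with little RNA in every cell cannot be told apart.

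Of the 35993 genes in the table, 11277 were expressed, which is 31.3% of all genes, and 18835 were not detected, of which 16233 had 0 counts in every library. The genes not detected included 1592 miRNA and 410 tRNA genes, in libraries prepared with a kit for messenger RNA. Among the 19319 protein-coding genes, 10264 (53.1%) were expressed, 575 of them very high, 4439 high and 5250 moderate, while 3283 were trace and 5772 not detected. These 2 shares are the background against which the counts of each gene list are set. Long non-coding RNA genes were expressed in 373 of 5120 cases. The very high genes held 65.7% to 65.9% of the summed FPKM of a library, and the 10 highest genes alone held 14.8% to 15.6%.

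Transcripts of mitochondrial DNA led the order. COX3, a subunit of cytochrome c oxidase, had 13453, 12931 and 13788 FPKM in libraries 1, 2 and 3, above COX2 at 10191 ± 311 and COX1 at 8710 ± 334, and the values of these genes did not overlap. Of the 30 highest genes, 11 were mitochondrial and 11 encoded cytosolic ribosomal proteins, with the ribosome-associated RACK1 counted among the latter. Mitochondrial genes took 7.42% to 7.85% of the counts. The highest nuclear gene was TMSB4X, encoding the actin-binding peptide thymosin beta 4, at 5683 ± 121 FPKM. It was followed among nuclear genes by the glycolytic enzyme gene GAPDH at 4578 ± 57.4, the ferritin light chain gene FTL at 4298 ± 89.6, the elongation factor gene EEF1A1 at 4004 ± 45.5 and the intermediate filament gene VIM at 3468 ± 13.4. Neighbours in the order of the 30 had overlapping library values in 15 cases, VIM and RPS18 among them, so the exact order is not fixed by these libraries. All 25 housekeeping genes and all 15 proliferation genes on the lists were expressed, with the proliferation marker MKI67 at 20.9 ± 0.926 FPKM and the topoisomerase gene TOP2A at 87.0 ± 5.48.

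Ductal markers were expressed only in part. Simple-epithelium keratins were very high, whereas several genes that define duct cells had 0 counts in all 3 libraries. Of the 20 ductal markers, 8 were expressed, 4 were trace and 8 were not detected, against 53.1% of protein-coding genes expressed.

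KRT18, an acidic keratin of simple epithelia, had 1113, 1092 and 1052 FPKM in libraries 1, 2 and 3, and its partner KRT8 had 1080, 1105 and 1040. Their values overlapped, and their spans in the table overlap by position, so reads in the shared stretch may not be told apart. KRT19, the keratin most used as a duct marker, was at 170, 177 and 177 FPKM, below both in every library. The duct and progenitor factor SOX9 was at 30.2 ± 0.326 FPKM, the tight-junction gene CLDN4 at 42.1 ± 0.640 and the mucin gene MUC1 at 8.30 ± 0.117. In contrast, the keratin KRT7 had 0.356, 0.316 and 0.322 FPKM and was called trace. EPCAM, the epithelial adhesion molecule, and CFTR, the chloride channel of duct cells, each had 0 counts in each library. The label of a pancreatic carcinoma line thus met keratins of epithelium, while these defining duct genes were absent at this depth.

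Few acinar and islet markers on the lists were expressed. Of 19 acinar markers, 1 was expressed and 15 were not detected, including PTF1A, which specifies acinar cells, and the trypsinogen gene PRSS1. The exception was the nuclear receptor gene NR5A2 at 2.23, 2.25 and 2.58 FPKM. Of 23 islet markers, 3 were expressed and 15 not detected. The hormone genes INS, GCG and SST, the granule gene CHGA and the factor NEUROD1 were not detected. The 3 expressed genes were ENO2, a neuronal form of enolase, at 12.3 ± 0.419 FPKM, the vesicle gene SYP at 3.31 ± 0.279 and the eye and islet factor PAX6 at 1.43 ± 0.136, none of which makes a hormone.

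Transcription factors of the foregut and pancreas were divided. Of 25 on the list, 10 (40%) were expressed, against 53.1% of protein-coding genes, while 9 were trace and 6 not detected. The epithelial ETS factor EHF was highest at 32.0 ± 1.44 FPKM, followed by TEAD4, a partner of the Hippo pathway co-activators, at 22.2 ± 1.03. GATA4 was at 5.24 ± 0.308, whereas its relative GATA6 was not detected. The pancreatic master factor PDX1 had 15, 10 and 21 counts (0.133 ± 0.0521 FPKM) and FOXA1 0.451 ± 0.0368 FPKM, both trace, and HNF4A and FOXA2 were not detected.

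None of the 24 classical subtype genes was expressed, with 21 not detected and 3 trace, among the former the trefoil gene TFF1, the adhesion gene CEACAM6 and the secretory gene AGR2. The summed level of the whole classical list was 0.0811 to 0.246 FPKM per library. Of 25 basal-like genes, 6 (24.0%) were expressed, with a summed level of 191 to 192 FPKM, and 14 were not detected. The share of the basal-like list was thus also under the background of 53.1%. Its expressed members were the EGF receptor ligand gene AREG at 84.0, 81.1 and 78.9 FPKM, the long non-coding RNA UCA1 at 43.3 ± 1.85, KRT15 at 34.9 ± 0.131, the glucose transporter gene SLC2A1 at 19.6 ± 0.761, S100A2 at 6.17, 7.06 and 6.28 and the cathepsin gene CTSV at 5.46 ± 0.173. The keratins KRT6A and KRT17 of the same list were not detected. Both lists were taken from general knowledge of the subtypes, and no subtype score was made.

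TP63, a transcription factor that governs squamous epithelium, was high at 36.9, 36.7 and 36.3 FPKM. The squamous keratin genes KRT5 and KRT14 and the desmosomal gene DSG3, which usually accompany it in squamous cells, had 0 counts, and TP63 was the sole expressed gene of the 8 on the squamous list. TP63 has an upstream promoter for the TA forms, which carry an activation domain, and an internal promoter for the shorter ΔN forms. When the deposited transcript estimates were grouped by start position, a choice made after the values were seen, the 5 transcripts starting at position 189349178 of chromosome 3 held 95.2% ± 1.51 of the summed TP63 FPKM. One transcript starting further upstream at 189314535 held 3.22% ± 1.08, and the 7 transcripts starting at 189507448, the internal site, held 1.55% ± 0.544. These positions are in the coordinates of the deposited table, whose genome build is not given.

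Markers of other cell types were mostly absent, with single members at high levels. The stellate and fibroblast list had 4 of 16 genes expressed, led by VIM at 3483, 3463 and 3457 FPKM. RGS5, a pericyte regulator of G-protein signalling, was at 134, 136 and 144 FPKM, and COL1A2, a chain of type I collagen, at 26.1 ± 1.31. The partner chain gene COL1A1 was trace at 0.0256 ± 0.00564 FPKM. The fibroblast genes DCN and FAP and the stellate cell globin gene CYGB were not detected, CYGB with 0 counts in each library. Of 10 endothelial markers 2 were expressed, CDH5 at 27.8, 27.8 and 25.2 FPKM and EMCN at 1.65 ± 0.266, while PECAM1 was not detected and VWF was at 0.0163 FPKM. The leukocyte list had CD68, a lysosomal protein of macrophages and other cells, at 19.8 ± 0.908 and CD14 at 2.66 ± 0.111 FPKM, with PTPRC and CD3E not detected. Of the neuronal list, the tubulin gene TUBB3 was very high at 205 ± 3.55 FPKM, SYT1 was moderate at 1.82 ± 0.181, and 9 of 13 genes, RBFOX3 and STMN2 among them, were not detected. The hepatocyte list had 1 of 10 genes expressed, the urea cycle gene CPS1 at 3.29 ± 0.161 FPKM. Of 28 cancer-testis antigens, genes normally limited to the germline, PRAME was the only one expressed, at 7.48, 7.86 and 7.94 FPKM, and the other 27 were not detected.

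**Figure D1:**
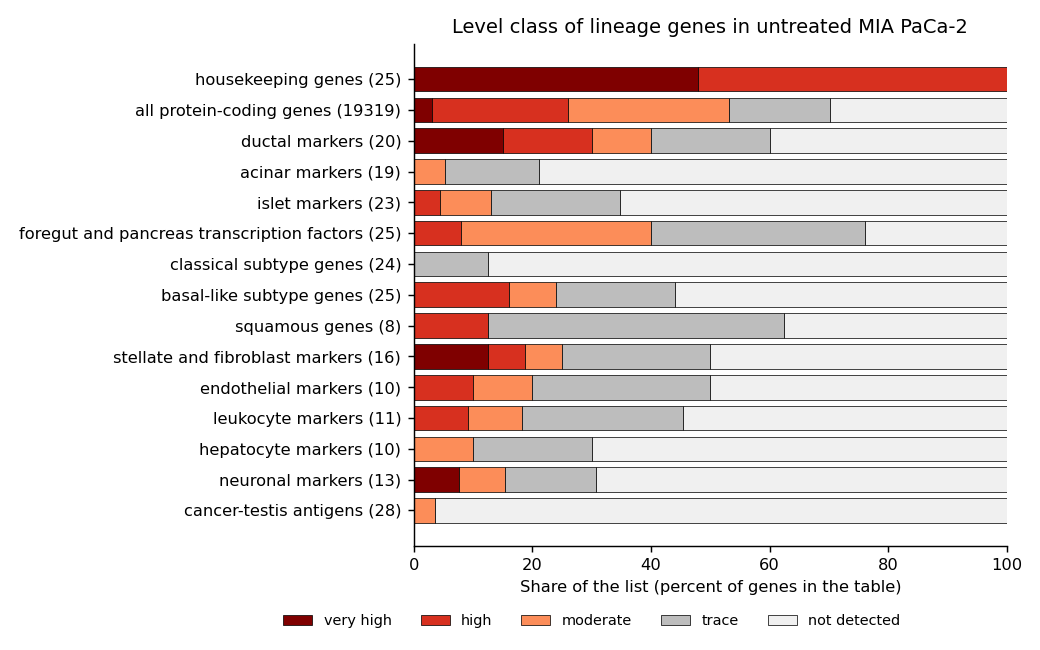
Share of each gene list in each level class in the 3 untreated libraries (horizontal axis, percent of the genes in the table; the number of genes is in parentheses). Very high, high and moderate genes had FPKM of at least 1 in every library. All 25 housekeeping genes were expressed, against 8 of 20 ductal markers, 1 of 19 acinar markers and 0 of 24 classical subtype genes.

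Cell adhesion showed filaments of both epithelial and mesenchymal kind beside E-cadherin and N-cadherin genes that were not detected. VIM, the mesenchymal filament gene, exceeded KRT18 and KRT8 in every library. Of 24 keratins, 6 were expressed and 15 had 0 counts, and after KRT18, KRT8 and KRT19 came KRT15 and KRT80, the latter at 30.8 ± 1.18 FPKM.

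Cadherins join neighbouring cells through calcium-dependent contacts and bind catenins inside the cell. Of 21 cadherin genes on the list, which holds classical cadherins and the related CDH13, CDH16 and CDH17, 2 were expressed and 14 not detected. CDH1, encoding E-cadherin, had 2, 0 and 0 counts, CDH2, encoding N-cadherin, had 0 in each library, and CDH11 was not detected either. CDH3, encoding P-cadherin, had 13, 6 and 3 counts and was trace. The highest was CDH5, the cadherin of endothelium given above at a level in the high class, and CDH24 followed at 1.93 FPKM. The catenin genes were expressed in 4 of 7 cases (57.1%), near the 53.1% of protein-coding genes. The 4 were CTNNA1 at 92.2, 87.1 and 92.1 FPKM, CTNNB1 at 62.5 ± 1.65, CTNND1 at 21.9 ± 0.672 and JUP at 7.31 ± 0.173.

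Claudins, the strands of tight junctions, were expressed in 5 of 21 cases. CLDN11, known from oligodendrocytes and Sertoli cells, was very high at 179, 168 and 166 FPKM, followed by CLDN4 and by CLDN1 at 21.0 ± 1.05, without overlap. CLDN12 was at 8.64 ± 0.171 and CLDN15 at 5.77 ± 0.428. CLDN3 and CLDN7, typical of gut and duct epithelium, were not detected, CLDN7 with 2, 0 and 0 counts. The scaffold gene TJP1 was at 7.88 ± 0.371 FPKM and the strand gene OCLN at 4.06 ± 0.0862. Desmosome genes were expressed in 5 of 13 cases, among them PERP at 34.8 ± 1.09, PKP3 at 16.9 ± 0.266 and the plaque gene DSP at 5.54 ± 0.0902, and GJB5 at 16.1 ± 1.07 led the connexins, of which GJA1 was not detected. The mucin list held 1 expressed gene of 14, MUC1, and MUC4, MUC5AC and MUC16 were not detected.

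Regulators of the epithelial state were mostly silent. Of the 16 epithelial splicing and transcription regulators, 2 were expressed, the protease inhibitor gene SPINT2 at 21.7 ± 0.851 FPKM and ELF3 at 2.46 ± 0.0738. The splicing factor gene ESRP1 had 12, 10 and 10 counts and was trace, and ESRP2, GRHL2, OVOL2 and RAB25 were not detected. Of 11 mesenchymal transcription factors, 4 were expressed, all moderately. ZEB1, a repressor of CDH1, was highest at 5.57, 6.15 and 5.85 FPKM, SNAI2 was at 1.72 ± 0.131 and SNAI1 at 1.45 ± 0.232. SNAI1 and SNAI2 overlapped between libraries, and ZEB2 and TWIST1 were not detected.

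**Figure D2:**
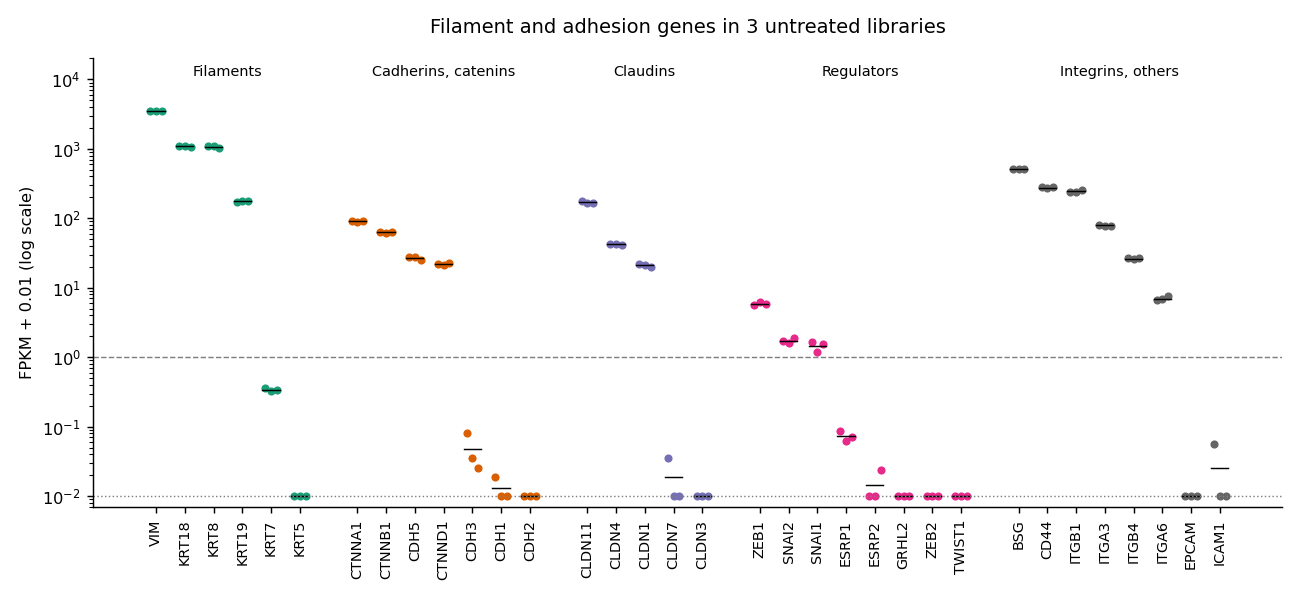
Levels of filament, cadherin, claudin, regulator, integrin and other adhesion genes as FPKM + 0.01 on a log axis. Each point is 1 of the 3 untreated libraries, the bar is their mean, the dashed line marks 1 FPKM and the dotted line 0. VIM, KRT18 and KRT8 lie above 1000 FPKM, while CDH2, CLDN3, GRHL2, ZEB2, TWIST1 and EPCAM lie at 0 in all 3 libraries.

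Receptors for the matrix were centred on a few subunits. ITGB1, the integrin beta chain with most partners, was at 240, 242 and 254 FPKM, and ITGA3, which with it forms a laminin receptor, at 79.9, 78.5 and 78.3. ITGB4, at 26.3 ± 0.470 FPKM, and ITGA6, at 6.98 ± 0.462, encode the pair found in hemidesmosomes. ITGAV at 10.8, 10.9 and 11.2 FPKM and ITGB5 at 11.1 ± 0.205 encode a vitronectin receptor, and ITGA5 was at 5.95 ± 0.0603. The collagen receptor chain gene ITGA2 was trace at 0.0774 FPKM and ITGB6 at 0.0353. Of other adhesion molecules, BSG (basigin) was highest at 513, 515 and 513 FPKM, followed by the hyaluronan receptor gene CD44 at 277, 269 and 280 and the tetraspanin gene CD9 at 141 ± 0.598. L1CAM was at 10.3 ± 0.237, ICAM1 was trace at 0.0153 and CEACAM5 was not detected. For CD44, the standard form without variable exons held 87.4% ± 1.67 of the summed transcript FPKM, at 247, 236 and 240 FPKM, and the full-length form with variable exons 0.0185% ± 0.00481. The rest lay in other transcripts of the 8 listed for the gene. Whether those carry variable exons was not examined.

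Among 58 receptor tyrosine kinases, 21 (36.2%) were expressed, none very high, against 53.1% of protein-coding genes expressed. EPHA2, a receptor for membrane-bound ephrins, led with 78.1, 75.9 and 75.9 FPKM. Next came the Wnt co-receptor gene RYK at 41.9 ± 0.916, EPHA4 at 28.5, 28.5 and 30.1, ERBB2 at 26.6 ± 1.07, EPHB4 at 23.5 ± 0.737 and the collagen receptor gene DDR1 at 15.5 ± 0.262, each without overlap with the next. EGFR had 13.4, 13.2 and 13.3 FPKM and AXL, the receptor of GAS6, 13.9, 12.8 and 13.3, so their order was not fixed. MET, the receptor of hepatocyte growth factor, was moderate at 4.47 ± 0.0836 FPKM and IGF1R at 4.03 FPKM. ERBB3 was trace at 0.600 ± 0.0325, MST1R at 0.114, and ERBB4, KIT, KDR and CSF1R were among the 18 not detected. FGFR2 stood at the limit with 1.05 ± 0.160 FPKM, and library 2 alone kept it out of the expressed class.

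TGF-beta signals through a pair of receptors, of which the type II chain binds the ligand first. Its gene TGFBR2 had 9, 17 and 4 counts, 0.0457 ± 0.0270 FPKM, and was trace. The type I chain gene TGFBR1 was at 5.93, 5.47 and 5.71 FPKM, the ligand gene TGFB1 at 5.72 ± 0.477 and the signal transducer gene SMAD4 at 6.97 ± 0.129. Of the 14 receptors of the superfamily, 7 (50%) were expressed, near the 53.1% of protein-coding genes. They included ENG at 13.8 ± 0.408, BMPR1A at 8.37 ± 0.460 and TGFBR3 at 6.21 ± 0.297 FPKM.

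Of 61 G-protein-coupled receptors, 15 (24.6%) were expressed, against 53.1% of protein-coding genes. The thrombin receptor gene F2R, at 138, 139 and 138 FPKM, and the orphan receptor gene GPRC5A, at 129, 126 and 125, were very high and stood far above the third, the neurotensin receptor gene NTSR1 at 12.5 ± 0.437. The adenosine receptor gene ADORA2B was at 11.4 ± 0.410. The chemokine receptor gene CXCR4 had 18, 17 and 16 counts, 0.202 ± 0.0312 FPKM, and was trace, and CXCR2, SSTR2, CCKAR and SCTR were not detected. The last 3 belong to receptors known from normal endocrine and exocrine pancreas.

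Nuclear receptors were expressed in 20 of 48 cases (41.7%), against 53.1% of protein-coding genes. They were led by the orphan receptors NR2F1 at 46.1, 47.2 and 46.4 FPKM, NR2F6 at 36.7 ± 0.754 and NR2F2 at 27.0 ± 1.09, without overlap. The glucocorticoid receptor gene NR3C1 was at 9.02 ± 0.277, the vitamin D receptor gene VDR was trace at 0.183 and the oestrogen receptor gene ESR1 was not detected. Wnt, Hedgehog and Notch receptors were expressed in 13 of 21 cases (61.9%), against the same 53.1%, all moderate except NOTCH2 at 11.2 ± 0.364. The Hedgehog transducer gene SMO was at 8.31 ± 0.329 and RNF43, which removes Wnt receptors from the membrane, was not detected.

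Cytokine receptors were expressed in 15 of 31 cases (48.4%), near the 53.1% of protein-coding genes. The interferon gamma receptor chain gene IFNGR2 was highest at 78.4, 77.5 and 71.6 FPKM, and IL13RA1 was next at 45.1 ± 2.64. The shared signal chain gene IL6ST was at 17.0 ± 0.308, whereas the specific chain gene IL6R was trace at 0.363. TNF receptors were expressed in 13 of 23 cases (56.5%), also near that share. Among them were TNFRSF1A at 117, 113 and 113 FPKM, LTBR at 83.8 ± 0.969, TNFRSF12A at 58.3 ± 5.01 and the death receptor gene TNFRSF10B at 26.2 ± 1.51. Toll-like receptors themselves were trace or not detected, TLR3 at 0.328 ± 0.0422 FPKM and TLR4 with its partner LY96 not detected, while the kinase gene IRAK1 downstream of them was at 106 ± 1.09. The DNA sensor gene CGAS was at 6.37 ± 0.169 and its effector gene STING1 at 2.28 ± 0.180 FPKM.

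Tumour genes were described as RNA levels only, since DNA was not measured in these libraries. Of 25 genes recurrently altered in pancreatic cancer, 19 (76.0%) were expressed, against 53.1% of protein-coding genes. GNAS, encoding a stimulatory G-protein subunit, was very high at 291, 293 and 294 FPKM and MYC was at 83.9 ± 1.64. Of the RAS genes, HRAS was at 23.5 ± 1.43 and NRAS at 19.5 ± 0.296 FPKM. ARID1A, of the SWI/SNF chromatin remodelling complex, was at 3.91 ± 0.0892. CDKN2A, KDM6A, RNF43 and DCLK1 were not detected.

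PKM, the last enzyme of glycolysis, was at 696 ± 0.870 FPKM. Of this, 1 transcript of the form PKM2 held 94.8% ± 0.269 and 1 transcript of PKM1 held 0.475% ± 0.0896. The rest lay in other transcripts of the 8 listed for the gene. Which form those encode was not examined, so the shares are of these transcripts and not of the forms.

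The RAS pathway and DNA repair were broadly expressed. Of 30 RAS family and effector genes, 29 (96.7%) were expressed, against 53.1% of protein-coding genes. MAP2K2 was highest at 235, 236 and 222 FPKM, and AKT1 was next at 74.0 ± 1.65. All 18 repair genes were expressed, from FANCD2 at 3.11 FPKM to XRCC6, of the Ku complex, at 190 ± 7.60. Among 40 other tumour suppressors, 31 (77.5%) were expressed, against the same 53.1%, with RB1 at 10.9 ± 0.544. The 5 not detected, named after their values were seen, were DCC, SLIT2, ROBO2, PRDM1 and TUSC3.

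Chromatin remodelling subunits were expressed in 21 of 26 cases (80.8%), against 53.1% of protein-coding genes. SMARCA4, 1 of the 2 alternative motor subunits of SWI/SNF, was at 31.9 ± 0.832 FPKM. The other, SMARCA2, was trace at 0.467, 1.36 and 0.487 FPKM, with 58, 138 and 106 counts. Library 2 thus lay apart in FPKM, whereas by counts library 3 lay between the other libraries. ARID1B had 0 counts in all 3 libraries, and of its neighbours, chosen after their values were seen, TMEM242 was expressed at 3.88 ± 0.256 and NOX3 on the other side was trace with 19, 0 and 9 counts.

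Silence at CDKN2A extended over its neighbours. Ordered by position in the deposited table, 29 consecutive protein-coding genes on chromosome 9, from SLC24A2 to LOC100506422 at positions 19507450 to 26118406 (6.61 Mb), had 0 counts in all 3 libraries. The stretch held CDKN2A and CDKN2B, which encode inhibitors of cell cycle kinases, MTAP, a methionine salvage enzyme of most tissues, KLHL9, FOCAD, MLLT3, DMRTA1, ELAVL2 and the cluster of type I interferon genes, which are silent in most resting cells. Of the 55 genes of any type within it, 53 had 0 counts and the highest single count was 1. Over the whole table, 16233 of 35993 genes and 5275 of 19319 protein-coding genes had 0 counts in every library. On its flanks, ACER2 was trace at 0.403 ± 0.0549 and the ribosomal protein gene RPS6, further out, very high at 957, 968 and 959 FPKM. On the other flank CAAP1 was at 6.47, 6.46 and 6.95 FPKM and PLAA at 7.10 ± 0.400, whereas 5 of the 8 nearest protein-coding genes on that side also had 0 counts and 3 were expressed. On the side of ACER2, 1 of the 8 nearest had 0 counts and 5 were expressed. Both p16INK4a and p14ARF, the products of CDKN2A, had 0 counts by transcript. Among runs of protein-coding genes without a count, with chromosome Y and mitochondrial DNA left out, this one ranked 8 by number of genes and 6 by length. By number of genes, the first 3 began at the olfactory receptor genes OR4B1 and OR2B11 and the keratin gene KRT12.

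A shorter run, chosen after its values were seen, lay around KDM6A on the X chromosome, where 7 consecutive protein-coding genes from MAOB to DIPK2B, at positions 43625857 to 45060121 (1.43 Mb), had 0 counts. KDM6A encodes a histone H3 lysine 27 demethylase, and FUNDC1 in the same run encodes a mitochondrial outer membrane protein. Of the 14 genes of any type in the span, 10 had 0 counts and the highest single count was 7, against 16233 of all 35993 genes with 0 counts. By number of genes, the run ranked 24 in the table held 13, so this run of 7 ranked lower. MAOA on one side was at 2.33 ± 0.136 FPKM and KRBOX4 on the other at 8.08 ± 0.613, and of the 8 nearest genes on each side, 4 and 7 were expressed. The other genes of the CDK inhibitor list were expressed, 6 of 8 (75%) against 53.1% of protein-coding genes, with CDKN1B at 25.8 ± 0.601. What the runs of 0 counts stem from was not tested.

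**Figure D3:**
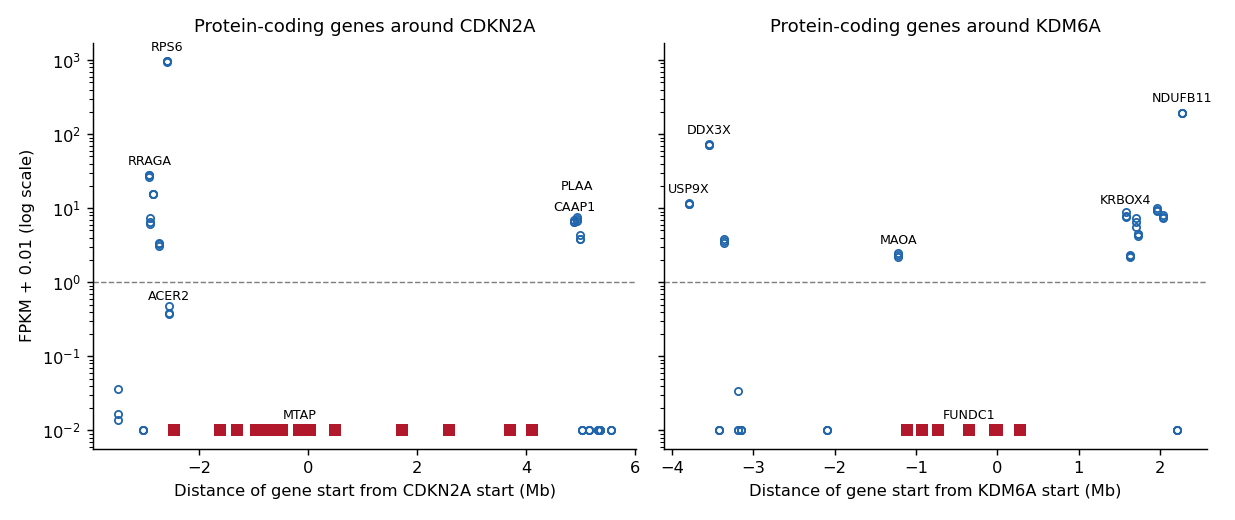
Levels of protein-coding genes as FPKM + 0.01 on a log axis against the distance of each gene's start from the start of CDKN2A (left) and of KDM6A (right), in Mb. Filled squares are genes of the run with 0 counts in all 3 untreated libraries (29 and 7 genes), open circles are the 8 genes on either side, each library drawn as 1 symbol, and the dashed line marks 1 FPKM.

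Secreted and matrix genes ranged from 0 counts to over 1000 FPKM. Some protease inhibitors and small calcium-binding and sugar-binding proteins were very high, the chemokines CXCL1 and CXCL8 were high, and several ligands typical of stroma were not detected. The share expressed was 42.4% (14 of 33) for protease inhibitors and binding proteins, 44.3% (27 of 61) for matrix proteins, 37.5% (18 of 48) for growth factors and 19.4% (7 of 36) for chemokines, each under the 53.1% of protein-coding genes.

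S100A6, a calcium-binding protein, was highest at 2514, 2563 and 2428 FPKM, and its relative S100A4 was at 1120 ± 40.2. MIF, an inflammatory cytokine also found in most cells, was at 1007, 1020 and 961 FPKM. TIMP1, an inhibitor of matrix metalloproteinases, was at 765 ± 17.5, the galectin genes LGALS1 and LGALS3 at 687 ± 31.9 and 370 ± 4.42, the lysosomal and secreted protein gene PSAP at 286 ± 7.91, IGFBP6 at 255 ± 8.12 and the acute-phase serpin gene SERPINA3 at 231 ± 3.86. TIMP2 was at 181 ± 1.55, whereas TIMP3, SERPINB5, SLPI and IGFBP3 were not detected.

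Of 43 secreted proteases, 15 were expressed. The cathepsin gene CTSD was highest at 213, 207 and 213 FPKM, followed by PLAU, the urokinase activator of plasminogen, at 90.7 ± 3.20, and KLK6 was at 52.3 ± 0.466. MMP1 had 90, 96 and 29 counts, and library 3, at 0.330 FPKM, lay under the others and alone kept it out of the expressed class. MMP14 was trace at 0.313 ± 0.0773, MMP9 at 0.0193, and MMP2 and MMP7 were not detected.

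Among matrix genes, COL5A2 was high at 72.6, 74.9 and 78.0 FPKM. The laminin chain genes LAMC1, LAMA5 and LAMB1 were at 17.2 ± 0.206, 4.77 ± 0.0430 and 3.94 ± 0.250, while LAMB3, a chain of the laminin that ITGA6 and ITGB4 bind in skin, was trace at 0.515. FN1, encoding fibronectin, had 2, 10 and 20 counts and was trace, SPARC was trace at 0.0752, and THBS1 and TNC were not detected.

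Several chemokines of the CXC family that attract neutrophils were among the 7 of 36 chemokines expressed. CXCL1 was at 96.2 ± 2.37 FPKM, CXCL8 at 46.6 ± 4.69, CXCL5 at 32.1 ± 1.40 and CXCL2 at 12.4 ± 1.84, and the values of the first 3 did not overlap. CCL5 was at 6.41, 7.73 and 5.18 FPKM. CXCL6, chosen after its values were seen, was trace at 0.745 ± 0.214, and CXCL12, CCL2, CCL20 and PPBP were not detected. Of 49 interleukins and other cytokines, 9 were expressed, with LIF at 23.5 ± 1.59, CSF1 at 23.0 ± 1.33 and CSF3, the granulocyte growth factor, at 17.0, 16.2 and 14.1 FPKM. CXCL8, CSF3 and LIF were each lowest in library 3. IL6 and CSF2 were not detected, and TNF was trace at 0.381 FPKM.

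Other growth factors included HDGF at 268 ± 4.47, GRN at 160 ± 0.680, VEGFC at 21.3 ± 0.693 and VEGFA at 15.6 ± 1.19 FPKM. The neuropeptide gene GAL was at 81.7, 78.3 and 74.4 FPKM, without overlap with SEMA3A at 39.8 ± 1.75. SHH, the Hedgehog ligand, was at 13.0, 12.5 and 12.5 FPKM, the Wnt antagonist gene DKK1 at 22.3 ± 0.943 and the BMP antagonist gene NOG at 20.6 ± 0.971. Most genes of their families were trace or not detected, with 4 of 35 Wnt and Hedgehog ligands and antagonists and 9 of 35 TGF-beta superfamily ligands expressed.

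Ligands and receptors were then set side by side in 50 pairs known from textbooks, a list written after the values had been seen. Both partners were expressed in 11 pairs, the ligand alone in 15, the receptor alone in 12 and neither in 12. Of all protein-coding genes 53.1% were expressed, and the pairs were not compared with pairs drawn at random. The EGF receptor had 4 of its 6 listed ligands expressed, AREG and EREG at 81.3 ± 2.54 and 58.2 ± 1.90 FPKM and BTC and HBEGF at 6.25 ± 0.480 and 3.52 ± 0.379, while TGFA and EGF were trace at 0.0140 and 0.00717. GAS6 at 9.41 ± 0.292 was expressed beside AXL, and LIF beside LIFR at 3.36 ± 0.0593. In contrast, CXCL1 and CXCL8 stood without CXCR1 or CXCR2, CSF1 without CSF1R and CSF3 without CSF3R. None of these receptors had a count over 3 in any library. SHH stood beside PTCH1, which was trace at 0.589 ± 0.00851 FPKM with 203, 246 and 226 counts. The receptors MET, NTSR1 and TNFRSF1A were expressed without HGF, NTS (0.164 FPKM) or TNF above 1 FPKM.

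**Figure D4:**
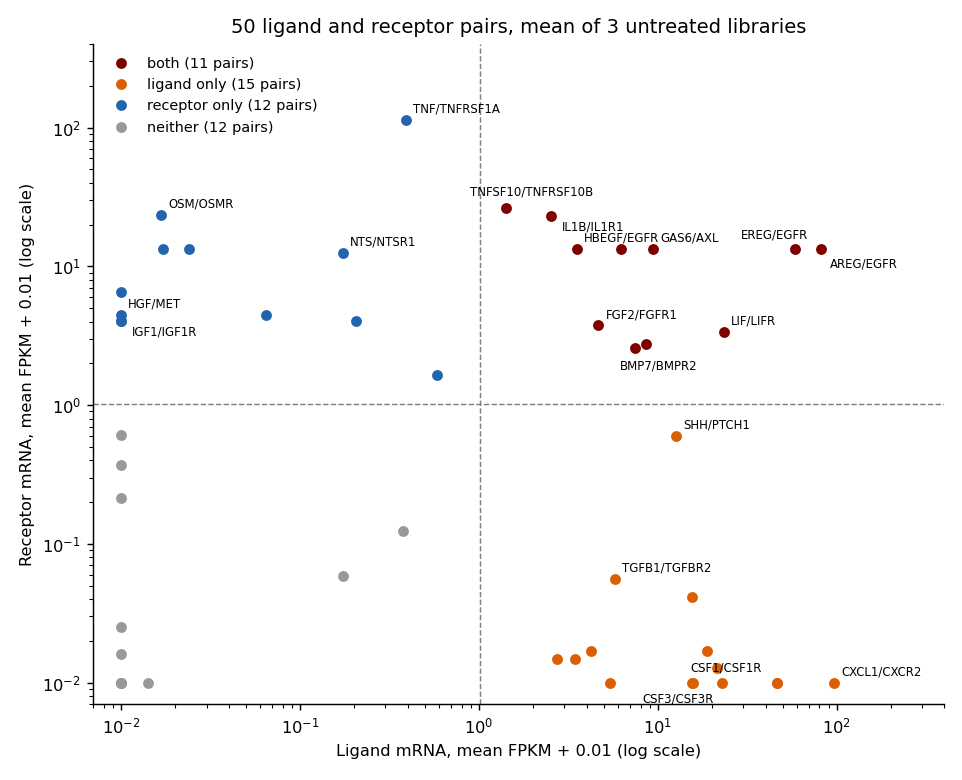
Mean FPKM + 0.01 of the ligand (horizontal) and of the receptor (vertical) for 50 ligand and receptor pairs over the 3 untreated libraries, both axes logarithmic. Dashed lines mark 1 FPKM. The colours give the 11 pairs with both partners expressed, 15 with the ligand alone, 12 with the receptor alone and 12 with neither, and some pairs share a gene or lie on the same point.

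Promoter sequences were compared between level classes to see what the high and the silent genes share. The following 250 bases before the start of 7 genes, from RefSeq on GRCh38.p14, show pairs from the results above, 5′ to 3′, with every GGGCGG or CCGCCC (the GC box, either strand) and every TATAAA (the TATA box) in capitals. S100A6 (chr1:153535992-153536241, minus strand) and S100A4 (chr1:153545807-153546056, minus strand) are both very high.
S100A6: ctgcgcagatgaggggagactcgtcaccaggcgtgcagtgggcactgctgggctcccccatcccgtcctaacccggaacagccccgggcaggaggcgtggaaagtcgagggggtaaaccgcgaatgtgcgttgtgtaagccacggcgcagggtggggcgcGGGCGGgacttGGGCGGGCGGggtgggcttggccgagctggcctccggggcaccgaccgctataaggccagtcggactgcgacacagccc
S100A4: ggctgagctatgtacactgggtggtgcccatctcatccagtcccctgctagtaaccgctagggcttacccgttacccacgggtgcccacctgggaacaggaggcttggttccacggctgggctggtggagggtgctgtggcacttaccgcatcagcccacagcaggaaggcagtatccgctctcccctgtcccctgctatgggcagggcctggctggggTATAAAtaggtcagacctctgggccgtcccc
CXCL1 (chr4:73869143-73869392, plus strand) and CXCL8 (chr4:73740319-73740568, plus strand) are the 2 highest chemokines.
CXCL1: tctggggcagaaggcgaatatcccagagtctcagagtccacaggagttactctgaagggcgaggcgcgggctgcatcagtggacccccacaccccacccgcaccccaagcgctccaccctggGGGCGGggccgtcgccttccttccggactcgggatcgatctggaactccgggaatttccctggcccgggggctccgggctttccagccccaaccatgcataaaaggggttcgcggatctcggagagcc
CXCL8: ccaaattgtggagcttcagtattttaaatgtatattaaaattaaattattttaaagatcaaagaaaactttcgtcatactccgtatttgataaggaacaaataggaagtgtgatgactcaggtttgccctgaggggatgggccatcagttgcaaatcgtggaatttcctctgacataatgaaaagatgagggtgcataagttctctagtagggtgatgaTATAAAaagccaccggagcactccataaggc
CLDN11 (chr3:170418618-170418867, plus strand) is very high, while CLDN7 (chr17:7263214-7263463, minus strand) and CDH2 (chr18:28177131-28177380, minus strand) were not detected.
CLDN11: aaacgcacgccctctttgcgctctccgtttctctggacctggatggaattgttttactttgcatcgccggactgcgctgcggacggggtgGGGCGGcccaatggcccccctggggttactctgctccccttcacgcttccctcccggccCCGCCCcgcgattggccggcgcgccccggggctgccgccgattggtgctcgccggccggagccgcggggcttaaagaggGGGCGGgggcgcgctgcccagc
CLDN7: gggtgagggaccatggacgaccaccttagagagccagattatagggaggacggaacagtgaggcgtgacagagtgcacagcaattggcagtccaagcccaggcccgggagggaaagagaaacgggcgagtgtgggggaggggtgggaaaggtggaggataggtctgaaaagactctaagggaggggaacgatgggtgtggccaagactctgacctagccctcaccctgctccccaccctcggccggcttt
CDH2: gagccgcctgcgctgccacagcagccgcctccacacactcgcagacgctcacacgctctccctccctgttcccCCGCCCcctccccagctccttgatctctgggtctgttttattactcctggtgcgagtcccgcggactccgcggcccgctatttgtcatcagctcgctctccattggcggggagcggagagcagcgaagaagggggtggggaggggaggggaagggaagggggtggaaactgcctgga
The 2 S100 genes differed in these features although both were very high, with 24 CpG pairs, 3 GC boxes (of which 2 overlap) and no TATAAA before S100A6, and 7 CpG pairs, no GC box and a TATAAA 31 bases before the start of S100A4. The chemokines differed in the same way, with 18 CpG pairs and 1 GC box for CXCL1, and 4 CpG pairs and a TATAAA 31 bases before the start for CXCL8. Only the exact letters TATAAA were counted. The close strings tataag before S100A6 and cataaa before CXCL1 were not, so these promoters may still hold a related element. CLDN11 had 29 CpG pairs and 3 GC boxes, CLDN7 9 CpG pairs and no box, and CDH2 17 CpG pairs and 1 GC box despite its 0 counts.

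Over the 15360 protein-coding genes of the table that matched a RefSeq promoter, the windows from 250 bases before to 50 after the start held a median of 26 CpG pairs in very high genes, 28 in high, 27 in moderate, 19 in trace and 6 in genes not detected, against 22 over all promoters. A GC box was found in 72.4% of the promoters of very high genes and in 33.1% of those of genes not detected, against 59.3% of all. The TATA box went the other way, in 8.84% and 18.8%, against 9.51% of all, but it was less frequent in high (4.52%) and moderate genes (4.59%) than in very high ones. CCGGAAG, the core of ETS factor sites, matched in 24.6% of very high genes and 3.69% of genes not detected, against 14.5% of all. GCATGCGC, the NRF1 core, matched in 4.63% and 1.46% (4.32% of all), and TCTCGCGA in 5.26% and 0.348% (1.81% of all). By ratio CCAAT varied least, between 34.1% in trace and 43.6% in very high genes (36.6% of all). All motifs were searched on both strands. The share of G and C differed as well, with a median of 64.3% in very high genes and 54.3% in genes not detected, and a match is a description of letters, not of binding.

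**Figure D5:**
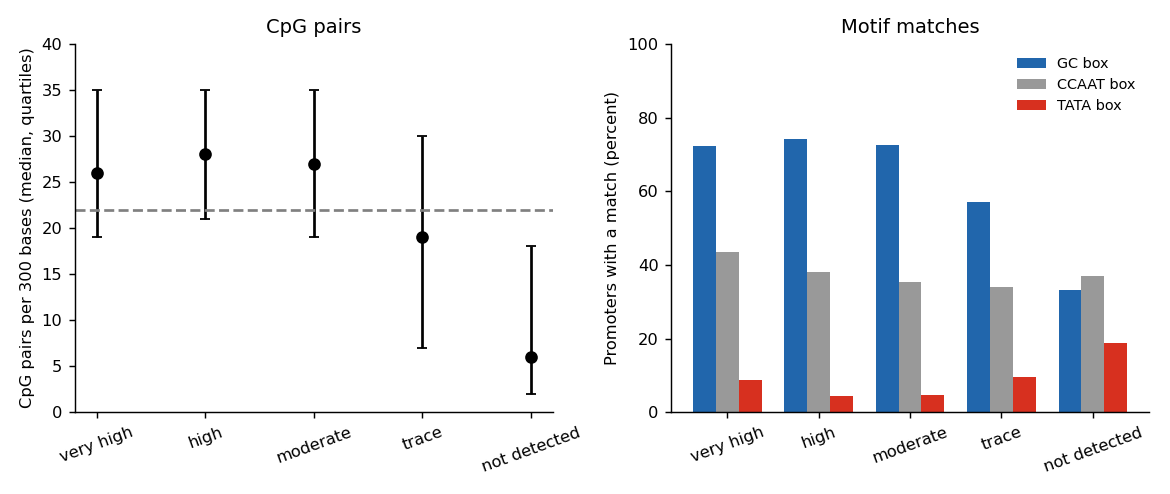
Left, CpG pairs per 300-base promoter by level class (points are medians, bars the quartiles, the dashed line the median of all promoters, 22). Right, percent of promoters in each class with a GC box, a CCAAT box or a TATA box on either strand. Expressed classes lie at medians of 26 to 28 CpG pairs, and genes not detected at 6.

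The 3 libraries were close to each other. For the 11600 genes with a mean of at least 100 counts, the median coefficient of variation of the CPM was 4.11%. The spread set by counting alone, computed from the mean counts, had a median of 2.85%. The first rests on an SD over 3 libraries, whose median lies under the true spread, so the values are not directly comparable. The median coefficient of variation was 2.17% for very high, 3.05% for high, 5.20% for moderate and 10.9% for trace genes, so levels of deeply read genes are the more reliable. The common dispersion from edgeR over 14692 genes was 0.00222, which corresponds to a variation of 4.72%. Pairs of libraries differed by more than counting error, with a chi-square per gene of 5.38 to 6.83, and were counted as 3 separate libraries. Of the 10 genes with the highest coefficient of variation, 8 were readthrough loci that share exons with the genes they join, such as UBE2F-SCLY with 10, 4 and 332 counts and BLOC1S5-TXNDC5 with 110, 6 and 2145. The other 2 were PP7080 with 499, 275 and 68 counts and ZNF117 with 48, 280 and 477.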

How the data were processed

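RNA-seq of MIA PaCa-2 cells was analysed in the 3 untreated libraries, grouped by their labels; the 3 rhCYGB columns were not used. The authors checked reads with FastQC 0.11.7, mapped trimmed reads with HISAT2 2.1.0 and assembled transcripts with StringTie 2.1.3b (versions from the submitters' processing notes). Read counts per gene and transcript were deposited as whole numbers without normalization. The FPKM deposited by the authors are scaled to transcript length and depth, and the deposited TPM, scaled to a fixed total per library, were used only as an alternative. StringTie divides reads between overlapping transcripts, so values of overlapping genes and of isoforms are estimates. Whether counting used strand is not given in the sources used here. The files do not name their genome build: the submitters' notes list mm10, a mouse build, while positions on chromosome 1 reach 249231298, past the last gene of GRCh38 at 248937099, and only 3904 of 35869 genes matched by number overlap their GRCh38 position.

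The definitions were FPKM of at least 1 in every library for expressed and at most 3 counts in every library for not detected. Mean ± SD were computed in Python 3.11.15. CPM used TMM factors of edgeR 4.0.16 in R 4.3.3, whose dispersion fit was tested on simulated data. Of the 19319 protein-coding genes, 15360 matched a RefSeq promoter by gene number; in 12304 (80.1%) its last 30 bases lay near the start of a GENCODE transcript, at a like share on both strands.

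Members and gene lists were chosen with earlier results of these data known. The 53 lists held 1260 genes, of which 1254 were in the table and the rest were not analysed here. The text names marked genes of the lists, the 6 highest of each list, the 30 highest of the table, the 10 most variable with a mean of at least 100 counts and the neighbours of CDKN2A. Other genes were chosen after their values were seen: DSG3, ERBB4, KIT, KDR, CSF1R, DCLK1, FANCD2, the 5 tumour suppressors not detected, TMEM242, NOX3, CDH13, CDH16, CDH17, CXCL6, PPBP, the genes at the ends of the runs without counts and around KDM6A, and the partners in the ligand and receptor pairs. Some genes of the lists are not reported here.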

Additional observations from a re-analysis of the deposited data

How the results depend on the processing

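The number of expressed genes was 11277 and lay between 10007 (threshold of 2 FPKM) and 12539 (CPM of at least 1 with TMM factors) under all alternatives tried. Without 1 library it ranged from 11362 to 11380. The number of genes not detected was 18835, with 16233 at 0 counts in every library and 20826 at up to 10 counts, and 19152 to 19265 without 1 library. The number of list members expressed, 487, ranged from 441 to 581. Single lists moved by over 1.5 times in at most 7 of 53 cases under any alternative, and in 0 of 53 when a library was left out. With CPM, which is not scaled to length, 195 expressed genes were lost and 1457 gained. With only the 100 bases before the start, a TATAAA was found in 5.68% of promoters of very high genes and 11.9% of those not detected, and a GGGCGG in 52.8% and 22.4%, as a shorter window holds fewer matches. The median coefficient of variation, 4.11%, was 8.09% without the filter on low counts, and 2.96% to 3.64% without 1 library. These last values rest on an SD over 2 libraries and are not directly comparable with the value over 3. No paired analysis was possible because no test was made and a single group was described. FGFR2 passed the threshold of 1 FPKM without library 2, and MDK and MMP1 without library 3, and the cause was not tested. Other calls changed with the measure or threshold. ERBB3, called trace, passed at 0.5 FPKM. With a CPM of at least 1, ERBB3, SMARCA2, FOXA1, VDR, IL6R, TLR3, LAMB3 and MMP14 passed, among others. SNAI1 and SNAI2, among others, were lost at 2 FPKM. Low counts do not show that a gene is absent. Groups of 3 are too small to test for outlying libraries.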
